A study of Mus musculus with 10 samples.

Results

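Sertoli cells from mice aged 15 days post partum (dpp) were compared after treatment with 5 ng activin and without activin (0 ng), 2 arrays per group, so that 4 of the 10 arrays of the series carry the comparison. The arrays were chosen by their labelled age and dose alone. The other 6 arrays hold cells of 6 dpp treated with 0, 5 or 50 ng, again 2 per group. No genotype, strain or treatment time is given in the sources used here, the dose carries no volume, and nothing says whether replicates came from separate animals or cultures. The p-values therefore reflect how much these particular arrays differed, and that spread may be technical. The labels cite a manuscript on how the use of SMAD2 and SMAD3 in activin signalling changes with development, and the comparison at 15 dpp addresses what the dose of 5 ng did in the older cells.

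Sertoli cells line the seminiferous tubule and support germ cells. They divide in the young testis and then stop dividing and mature, while the germ cells beside them enter meiosis. Activin is a dimer of inhibin beta subunits that binds a type II receptor, which activates a type I receptor; this phosphorylates SMAD2 and SMAD3, which join SMAD4 and act on target genes in the nucleus. Inhibin, which carries the alpha subunit, follistatin and follistatin-like 3 antagonise activin outside the cell, and SMAD7 and SKIL restrain the signal inside it.

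The label was checked against marker genes, given here as deposited signals (linear probe set intensities). At 15 dpp the Sertoli cell genes were well above the filter on low signals (18.4): clusterin (Clu) lay between 7800 and 9568 on the 4 arrays, Cldn11, a tight junction protein of Sertoli cells, between 1592 and 1758, and Sox9, their sex-determining transcription factor, between 409 and 426. Amh, an early Sertoli cell hormone, was low, between 1.67 and 8.90. Germ cell genes were also high in both groups: the RNA helicase Ddx4 lay between 1510 and 1651, the meiotic protein Sycp3 between 2992 and 3335, and Ldhc, the germ cell lactate dehydrogenase, between 3249 and 4047. The 28 germ cell markers measured summed to 27260 and 28800 without activin and to 25550 and 28610 with 5 ng, so the groups overlapped. Median signals were 31.7 to 32.2 on the 4 arrays, and their pairwise correlations across genes were 0.987 to 0.991, with pairs of the same dose (0.9887 and 0.9889) inside the range of pairs of different doses (0.9871 to 0.9907).

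With 5 ng activin at 15 dpp, the genes with the smallest p were higher for the cyclin-dependent kinase Cdk14, the mitochondrial transporter Abcb10, the receptor Ror1 and the BCL2 family member Bok, each by about 0.5 to 0.7 on the log2 scale. They were lower for Vamp3, a membrane fusion protein, for the interleukin receptor Il15ra and for the organic anion transporter Slco2b1. The treated signals of Il15ra and Slco2b1 were below the filter, and a second Il15ra probe set had a positive change. None of the 12405 genes passed limma's test at an adjusted p under 0.05 (0%), and the smallest adjusted p was 0.224. With a replicate block within each age 20 genes passed limma's test (15 higher, smallest adjusted p 0.0128), but the labels do not say what the replicate numbers share. At an unadjusted p under 0.05 there were 605 genes (4.88%), of which 340 were higher (2.74%) and 265 lower (2.14%). On the log2 scale of the fit, only 1 gene had a change above 1 and 3 had a change below -1. That scale understates genes with low signals, so these are not counts of 2-fold differences in deposited signal. Foxc2, for example, had mean signals of 2.09 without activin and 19.3 with 5 ng but a change of 0.97. The middle 90% of changes ran from -0.26 to 0.27. The 95% interval of the change reached a median of 0.289 to either side of it and lay inside -1 to 1 for 97.9% of genes and inside -0.5 to 0.5 for 69.2%. In these bulk samples, fewer cells of a type and less RNA per cell cannot be told apart.

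Cdk14, a kinase that acts with membrane-bound cyclin Y, had signals of 68.0 and 73.2 without activin and 117 and 113 with 5 ng. Both treated arrays were above both untreated ones, a log2 change of 0.57 ± 0.09 (SE; limma adjusted p = 0.224), and 2 of its 3 probe sets had a positive change. Abcb10, a transporter of the inner mitochondrial membrane used in haem synthesis, went from 48.4 and 43.5 to 81.3 and 85.5. Its groups were apart by a log2 change of 0.68 ± 0.12. Bok, a BCL2 family protein linked to cell death, had 191 and 189 without activin and 281 and 294 with it. Its replicates were close within each group, and the change was 0.53 ± 0.09. Ror1, a receptor for WNT5A, lay at 18.7 and 20 and then at 39.6 and 45.7, again without overlap (0.73 ± 0.13), but its second probe set had 0.06 ± 0.19.

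Among the 20 genes with the smallest p, 13 were higher and 7 lower with 5 ng, and the arrays of the groups did not overlap for any of the 20. The 20 were chosen by p on these same arrays, which favours groups that are apart, so this adds no support. Over all genes the arrays did not overlap for 1940 genes on the higher side (15.6%) and 2047 on the lower side (16.5%). The adjusted p of the 20 genes ran from 0.224 to 0.304. Higher were also Lbh, a transcription cofactor (170 and 215 against 283 and 350, 0.64 ± 0.13), the laminin subunit Lamb1 (342 and 297 against 438 and 417, 0.40 ± 0.07), the integrin subunit Itgb8 (220 and 259 against 341 and 344, 0.48 ± 0.10) and the matrix-linked growth regulator Ccn2 (582 and 587 against 753 and 678, 0.30 ± 0.06). The membrane proteins Serinc5 (0.54 ± 0.11) and Slc44a2, a choline transporter (0.30 ± 0.06), the aldo-keto reductase Akr1cl (0.33 ± 0.07) and the zinc finger gene Zfp777 (0.78 ± 0.16) completed the higher genes together with Foxc2. Foxc2, a forkhead transcription factor, had signals of 2.61 and 1.56 without activin and 22.3 and 16.3 with it, so its change of 0.97 ± 0.18 rests on signals near or below the filter.

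On the lower side, Vamp3 went from 1622 and 1640 to 1201 and 1244, a change of -0.39 ± 0.07, and 4 of its 5 probe sets had a negative change. Slco2b1 went from 54.8 and 65.4 to 10.95 and 7.63, below the filter (-1.62 ± 0.32), the change farthest from 0 among all genes tested. Ajuba, a LIM protein of cell contacts, had 460 and 537 without activin and 282 and 369 with it (-0.61 ± 0.12). Irs2, an insulin receptor substrate, was at 25.3 and 30.2 and then at 1.40 and 7.86 (-1.10 ± 0.23), again near the filter. The other 2 lower genes besides Il15ra were Tango6 (-0.69 ± 0.14) and Spag7 (-0.49 ± 0.10). Probe sets of the same gene disagreed in sign for 4 of the 20. The probe set of Il15ra used here went from 37.9 and 39.2 to 17.1 and 7.01, below the filter. Its change was -0.99 ± 0.18 and that of the second one 0.38 ± 0.19. For Lamb1 the other probe sets had -0.06 ± 0.14 and -0.06 ± 0.12. Other probe sets had the same sign but smaller changes for Lbh (0.19 ± 0.19 and 0.06 ± 0.14) and Abcb10 (0.32 ± 0.15), and 1 of them for Slc44a2 (0.19 ± 0.09).

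**Figure D1:**
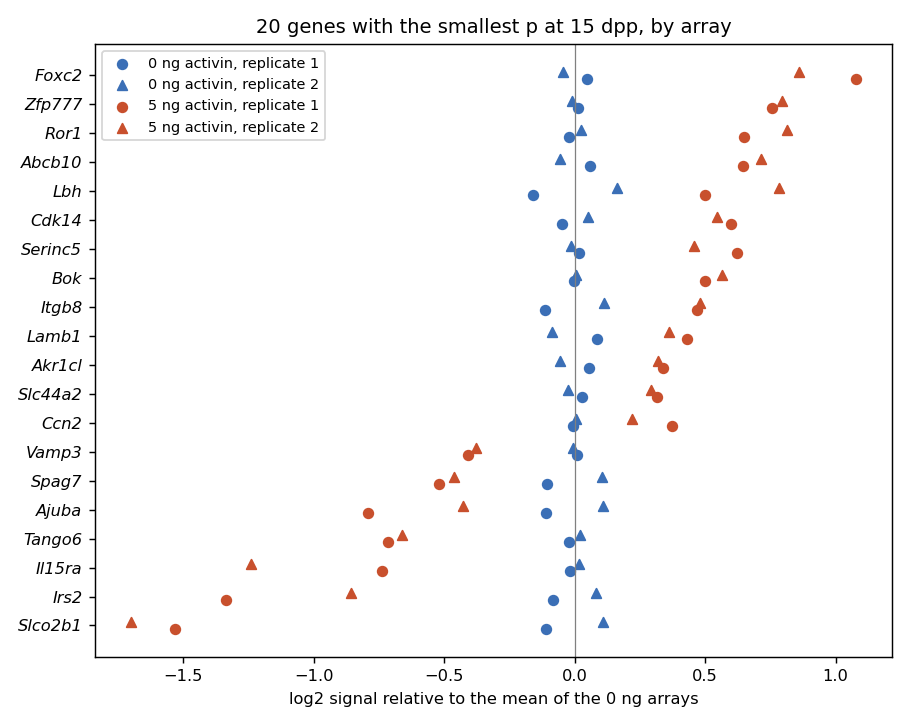
Signals of the 20 genes with the smallest p at 15 dpp, 1 row per gene, on each of the 4 arrays as log2(signal + 16) after quantile normalisation, relative to the mean of the 0 ng arrays (blue 0 ng, orange 5 ng; circles replicate 1, triangles replicate 2). The 2 treated arrays lie on the same side of both untreated arrays for all 20 genes, 13 to the right and 7 to the left. The genes were chosen by p on these same arrays, which favours such a separation.

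Among genes of the activin pathway, none passed limma's test at 15 dpp without a replicate block. Their 95% intervals were often wide, such as -0.38 to 0.78 for Amh, so a lack of change was not shown. Of the 12 ligand genes measured (of 20 listed), 8 had a change above 0, against 48.9% of all genes tested. Inha, the inhibin alpha subunit, had signals of 715 and 662 without activin and 838 and 866 with 5 ng. Its treated arrays were above both untreated ones, a change of 0.32 ± 0.11 (unadjusted p = 0.0129, limma adjusted p = 0.818), beside 0.49 with 5 ng and 0.53 with 50 ng at 6 dpp. The activin subunit genes had overlapping groups: Inhba lay at 95.3 and 101 and then at 97.0 and 87.1 (-0.09 ± 0.12), and Inhbb at 468 and 377 and then at 437 and 397 (-0.02 ± 0.09). Amh, low as given above, had a change of 0.20 ± 0.27. Of the remaining ligands, Tgfb3 had -0.20 ± 0.11, Bmp4 -0.29 ± 0.18 and Bmp6 0.37 ± 0.26.

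Fst, which encodes follistatin, had signals of 316 and 465 without activin and 316 and 399 with 5 ng (-0.11 ± 0.20). Fstl3, the follistatin-like antagonist, was at 423 and 536 and then at 478 and 519. Its groups overlapped at 15 dpp (0.06 ± 0.16, 95% interval -0.29 to 0.42), whereas with 50 ng at 6 dpp it passed with a change of 1.11 from a mean of 160, and with 5 ng at 6 dpp it had 0.27. The latent TGF-beta binding proteins gave 0.31 ± 0.15 for Ltbp3, 0.23 ± 0.13 for Ltbp4 and -0.31 ± 0.23 for Ltbp2. Across the 9 antagonists and binding proteins measured, 5 had a positive change, with a median of 0.06 that was -0.05 without the first untreated array.

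Of 14 receptor genes, 6 had a positive change (median -0.02, and between -0.03 and 0.00318 without single arrays). The activin type II receptors Acvr2a (139 and 160, then 143 and 129) and Acvr2b (43.9 and 54.1, then 60.6 and 50.6) and the type I receptor Acvr1b (293 and 255, then 264 and 284) all had overlapping groups, with changes of -0.14 ± 0.11, 0.13 ± 0.15 and -0.01 ± 0.12. Bambi, a decoy receptor without a kinase, was the 1 receptor gene at an unadjusted p under 0.05. Its signals were 91.4 and 80.8 without activin and 110 and 124 with it, with no overlap (0.36 ± 0.11, limma adjusted p = 0.739). The type II receptor Tgfbr2 had -0.14 ± 0.10, the BMP receptor Bmpr2 0.09 ± 0.07 and the co-receptor endoglin, Eng, -0.25 ± 0.18.

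The SMAD genes that carry the signal were expressed on all arrays. Smad2 had 399 and 305 without activin and 414 and 383 with it, Smad3 376 and 426 and then 395 and 479, and Smad4 1472 and 1489 and then 1348 and 1569. All of these groups overlapped, and the changes were 0.17 ± 0.11 for Smad2, 0.10 ± 0.12 for Smad3 and 0.00 ± 0.09 for Smad4. Smad2 without the second untreated array had -0.01. Smad7, the inhibitory SMAD that activin signalling induces, was at 57.3 and 72.6 and then at 49.1 and 84.4. Its change of -0.02 ± 0.19 (95% interval -0.43 to 0.40) stands beside 0.55 with 5 ng and 0.88 with 50 ng at 6 dpp, and the difference of the 5 ng changes between the ages was -0.56 ± 0.27 (unadjusted p = 0.058, adjusted p = 0.742). Skil, the SMAD co-repressor, was at 301 and 379 and then at 404 and 423, above both untreated arrays (0.27 ± 0.10, adjusted p = 0.868). Ldlrad4, an inhibitor of SMAD2 and SMAD3 phosphorylation, had low signals of 10.8 and 4.30 and then 23.3 and 15.7 (0.61 ± 0.20), and Smad5, a BMP-pathway SMAD, had -0.23 ± 0.09. Of the 20 SMAD genes and partners measured, 13 had a positive change (median 0.04, but -0.03 without the second treated array).

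Of 25 SMAD2/3 target and feedback genes measured, 20 had a change above 0, 4 were higher at an unadjusted p under 0.05 (Ccn2, Tagln, Ldlrad4 and Skil) and 0 lower. Over all genes 48.9% had a change above 0 and 2.74% were higher at that p. Of the 25 genes, 14 had a mean log2 level lower at 15 than at 6 dpp by over 1. Of these 14, 11 (78.6%) had a positive change and 3 (21.4%) were higher at that p. Among all genes with such a level the shares were 64.8% and 11.1%. Where the ages differed by at most 1, 8 of 10 had a positive change, against 48.1% of all such genes. The list had a median of 0.12 beside -0.00363 for all genes. The median log2 change of the list SMAD2/3 target and feedback genes at 15 dpp was -0.00141 without the first untreated array. Tagln, an actin-binding protein of contractile cells, was at 286 and 262 and then at 345 and 350 (0.31 ± 0.09). Of the 8 BMP-responsive genes, 7 had a positive change (median 0.12, but -0.03 without the second treated array), and Bambi, a member of that list too, was the 1 gene at an unadjusted p under 0.05, beside Msx1 (0.36 ± 0.29), Smad6 (0.16 ± 0.18) and Hey1 (0.30 ± 0.37).

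**Figure D2:**
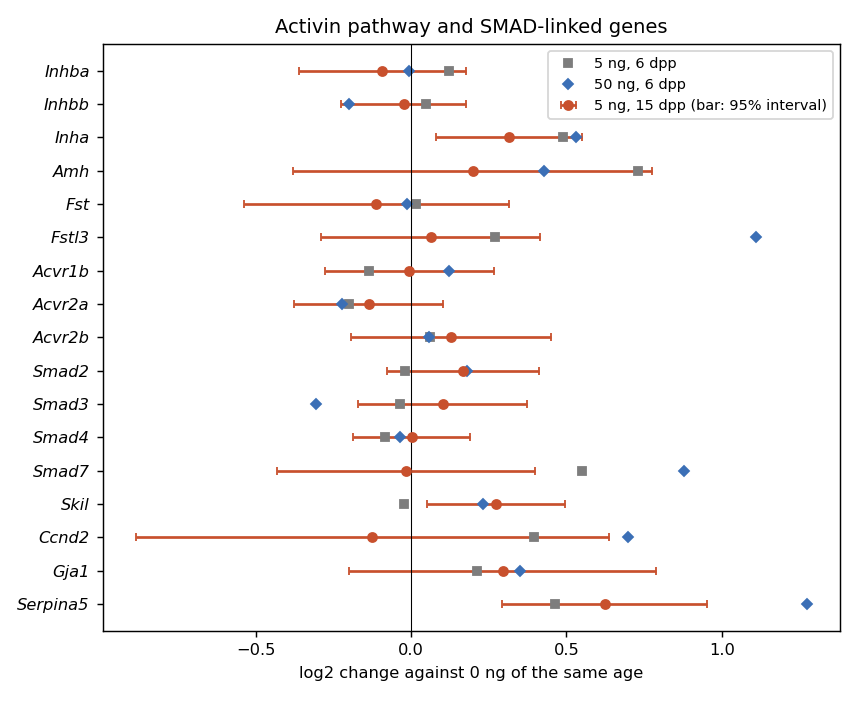
Log2 change against 0 ng of the same age for activin pathway genes and the SMAD-linked genes Ccnd2, Gja1 and Serpina5: orange circles, 5 ng at 15 dpp with the 95% interval from limma; grey squares, 5 ng at 6 dpp; blue diamonds, 50 ng at 6 dpp. The 15 dpp interval lies above 0 for Inha, Skil and Serpina5, and the 50 ng values at 6 dpp lie above it for Fstl3 (1.11), Smad7 (0.88), Serpina5 (1.27) and Ccnd2 (0.70) and below it for Smad3 (-0.31).

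Serpina5, a serine protease inhibitor of the reproductive tract, had signals of 159 and 130 without activin and 289 and 194 with 5 ng. Both treated arrays were above both untreated ones, a change of 0.62 ± 0.15 (unadjusted p = 0.00138, limma adjusted p = 0.507), against 0.46 with 5 ng and 1.27 with 50 ng at 6 dpp. Gja1, which encodes the gap junction protein connexin 43, had 914 and 1588 without activin and 1135 and 1824 with it. The replicates differed more than the doses, the groups overlapped (0.29 ± 0.23), and the change was -0.07 without the first untreated array and also without the second treated one. The signal was higher with 5 ng in both pairs of the same replicate number. With a replicate block within each age the Gja1 change was 0.29 ± 0.05 (limma adjusted p = 0.0427), but the labels give these numbers no meaning. Ccnd2, cyclin D2, was at 1355 and 3131 and then at 1229 and 2632 (-0.12 ± 0.35), with the same wide gap between replicates. Its difference of the 5 ng changes between the ages passed with that block (-0.52 ± 0.08, limma adjusted p = 0.0375).

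The genes that passed with 50 ng at 6 dpp (179 genes, 1.44%; 14% at an unadjusted p under 0.05) were then read at 15 dpp. With 5 ng at 6 dpp, 1 gene passed (0.00806%) and 9.66% had an unadjusted p under 0.05. The arrays of these comparisons are separate, although the fit shares its estimate of the spread. Of the 97 genes that rose at 6 dpp, 77 had a positive change at 15 dpp, and 31 were higher at an unadjusted p under 0.05 and 0 lower, beside 2.74% of all genes that were higher. Their median change was 0.15 at 15 dpp, against 0.66 at 6 dpp. The 82 genes that fell at 6 dpp were less uniform: 50 had a negative change, 8 were lower and 2 higher at an unadjusted p under 0.05, and the median was -0.04 against -0.57 at 6 dpp. The same sign at both ages was seen for 70.9% of the 179 genes and for 49.7% of the other 12226. Without a replicate block, no member of either group passed at 15 dpp after adjustment.

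Array by array, the median of the 97 genes relative to the mean of the untreated arrays was -0.0044 and 0.0044 without activin and 0.14 and 0.16 with 5 ng. Both treated arrays thus stood above both untreated ones by more than the replicates differed. For the 82 genes the medians were -0.02 and 0.02 without activin and -0.026 and -0.056 with it. Across the 179 genes, which are not independent replicates, the 15 dpp change correlated with the 50 ng change at 6 dpp with r = 0.599; over all 12405 genes r was 0.0633. When the arrays of each age were normalised, filtered and fitted alone, 143 genes that passed at 6 dpp were measured at both ages. Of 85 that rose, 74 had a positive change at 15 dpp and 23 were higher at an unadjusted p under 0.05 (0 lower), against 2.19% of all genes, and the median was 0.17. Of 58 that fell, 32 had a negative change.

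**Figure D3:**
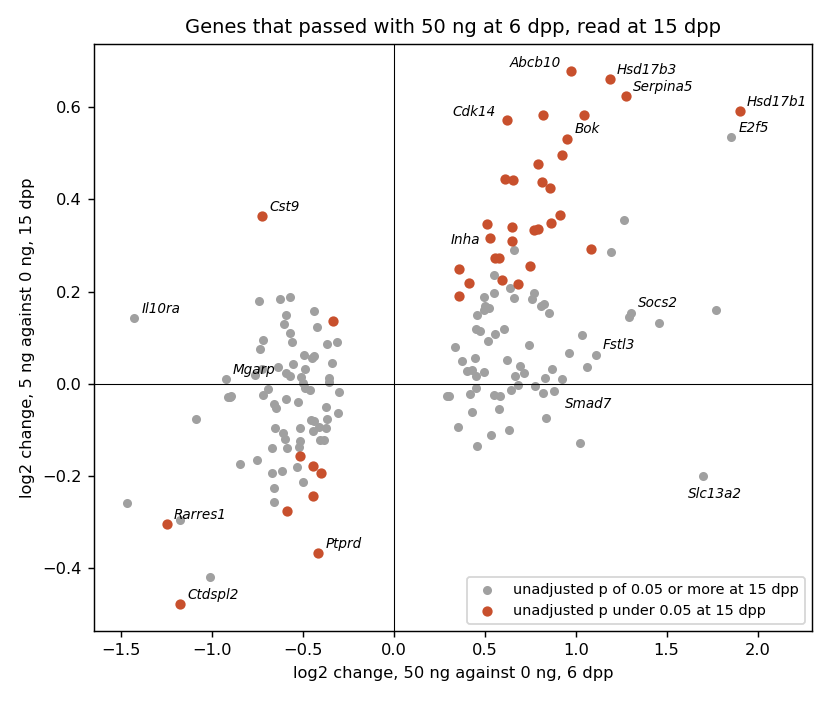
Each point is 1 of the 179 genes that passed with 50 ng against 0 ng at 6 dpp, with that log2 change on the horizontal axis and the log2 change for 5 ng against 0 ng at 15 dpp on the vertical axis; orange points have an unadjusted p under 0.05 at 15 dpp. On the right, 77 of 97 points lie above 0 and 31 of these are orange, and on the left 50 of 82 lie below 0.

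The 8 genes with the largest rise at 6 dpp split at 15 dpp. Hsd17b1, an enzyme that activates oestrogens and androgens, had signals of 17.4 and 13.6 without activin and 34.5 and 27.5 with 5 ng. The groups did not overlap (0.59 ± 0.17, adjusted p = 0.602; 1.90 with 50 ng at 6 dpp). E2f5, a cell cycle repressor, was at 125 and 115 and then at 165 and 207 (0.53 ± 0.28). That value rests on 1 of its 3 probe sets, since the others had 0.05 ± 0.14 and 0.07 ± 0.13. Serpina5 is described above. The other 5 had overlapping groups: Socs2, an inhibitor of cytokine signalling (0.15 ± 0.18), the homeobox gene Prrx2 (0.13 ± 0.17), the calcium-binding protein Tesc (0.15 ± 0.21), the secretory protein Zg16 (0.16 ± 0.32) and the citrate transporter Slc13a2 (-0.20 ± 0.26). Socs2 had a mean of 329 at 6 dpp without activin but 43.7 and 41.8 at 15 dpp, and Prrx2 and Zg16 had 15 dpp signals below 18.4 on all 4 arrays.

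Among the 8 genes with the largest fall at 6 dpp, Rarres1, a retinoic acid responsive gene, had 84.1 and 86.6 without activin and 63.6 and 70.7 with 5 ng. Its treated arrays were both lower (-0.30 ± 0.12; -1.25 with 50 ng at 6 dpp). Ctdspl2, a phosphatase, went from 238 and 213 to 182 and 136 (-0.48 ± 0.18), although 1 of its 3 probe sets had a positive change. The other values were -0.42 ± 0.21 for Ccdc74a, -0.26 ± 0.21 for Parvb, a focal adhesion protein, -0.29 ± 0.25 for the acid phosphatase Acp5, -0.08 ± 0.23 for Plcd3, 0.01 ± 0.16 for Mgarp and 0.14 ± 0.22 for the interleukin 10 receptor Il10ra.

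Further members of the 31 genes are named here after their values were seen. Adgrg1, an adhesion receptor, had 210 and 211 without activin and 293 and 302 with 5 ng (0.44 ± 0.10). Hsd17b3, the enzyme that makes testosterone from androstenedione, had low signals of 5.09 and 17.0 and then 22.7 and 28.3 (0.66 ± 0.21), against a mean of 340 at 6 dpp. Cltb, a clathrin light chain, went from 155 and 183 to 266 and 269 (0.58 ± 0.16), and Stra6, the receptor for retinol-binding protein, from 131 and 149 to 199 and 199 (0.44 ± 0.14). The adhesion molecule Epcam (333 and 336, then 427 and 416) and the GATA cofactor Zfpm1 (138 and 125, then 153 and 184) had changes of 0.31 ± 0.10 and 0.29 ± 0.12. In each of these 6 genes both treated arrays were above both untreated ones, as for 15.6% of all genes. They came from genes already higher at an unadjusted p under 0.05 on these arrays, so this adds no support. A gene of opposite sign was Cst9, a cystatin of Sertoli cells, which fell with 50 ng at 6 dpp (-0.72) and had 965 and 913 and then 1486 and 982 at 15 dpp (0.36 ± 0.15).

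The change at 15 dpp also went with the level of a gene at the 2 ages. Among the 1155 genes whose mean log2 level was lower at 15 dpp than at 6 dpp by over 1, 748 (64.8%) had a positive change and 128 (11.1%) were higher at an unadjusted p under 0.05. Among the 1080 genes higher at 15 dpp by over 1, 426 (39.4%) had a positive change and 6 (0.556%) were higher at that p. The genes that rose with 50 ng at 6 dpp were above the other genes within the first of these groups: 39 of 42 had a positive change and 24 were higher at that p (57.1%), against 9.41% of the 1105 genes that did not pass at 6 dpp. Where the ages differed by at most 1, 33 of 49 had a positive change and 6 were higher at that p (12.2%), against 1.97% of 10062. Of the 13 higher genes among the 20 with the smallest p, 12 had a lower level at 15 than at 6 dpp, as did 5 of the 7 lower genes and 6464 of all 12405 genes. Examples among the higher genes are Ror1 (mean 196 at 6 dpp without activin), Lamb1 (2110), Ccn2 (3700) and Akr1cl (3648).

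**Figure D4:**
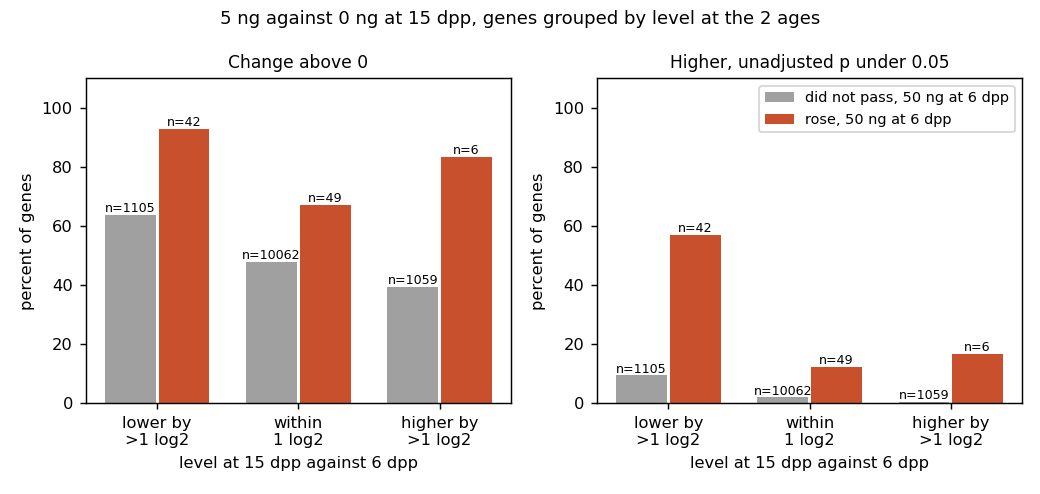
Percent of genes with a 15 dpp change above 0 (left) and percent higher at an unadjusted p under 0.05 (right), for genes whose mean level at 15 dpp was lower than, within 1 log2 of, or higher than that at 6 dpp; grey, genes that did not pass with 50 ng at 6 dpp; orange, genes that rose there. The orange bars are above the grey ones in each group, and both are highest on the right panel for genes with the lower level at 15 dpp (57.1% and 9.41%). Some genes of that group passed the filter on low signals only through their 6 dpp signals.

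Sequence upstream of the start site is shown for 4 genes with non-overlapping arrays, 3 of them (Cdk14, Abcb10 and Bok) the genes among the 20 with the smallest p that also passed with 50 ng at 6 dpp. The 5-base core CAGAC, or GTCTG on the other strand, is the SMAD-binding element, and capitals mark it. The 250 bases before the start are from RefSeq, build GRCm38.p6. Bok is on the plus strand of chr1:93685325-93685574, with the match starting 95 bases before the start. Abcb10 is on the minus strand of chr8:123983123-123983372 (111 bases before), Serpina5 on the plus strand of chr12:104100863-104101112 (207 bases before) and Cdk14 on the minus strand of chr5:5380252-5380501, where these letters do not occur.
Bok: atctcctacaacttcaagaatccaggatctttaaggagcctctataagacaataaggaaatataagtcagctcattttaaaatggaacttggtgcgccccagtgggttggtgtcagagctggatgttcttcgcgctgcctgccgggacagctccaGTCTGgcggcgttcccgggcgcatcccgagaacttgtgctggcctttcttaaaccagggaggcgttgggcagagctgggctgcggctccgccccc
Abcb10: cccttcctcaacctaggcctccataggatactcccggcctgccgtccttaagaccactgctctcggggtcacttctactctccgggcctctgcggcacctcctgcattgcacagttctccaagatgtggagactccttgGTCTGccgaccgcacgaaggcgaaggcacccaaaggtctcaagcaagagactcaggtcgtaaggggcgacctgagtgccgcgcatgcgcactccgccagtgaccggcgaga
Serpina5: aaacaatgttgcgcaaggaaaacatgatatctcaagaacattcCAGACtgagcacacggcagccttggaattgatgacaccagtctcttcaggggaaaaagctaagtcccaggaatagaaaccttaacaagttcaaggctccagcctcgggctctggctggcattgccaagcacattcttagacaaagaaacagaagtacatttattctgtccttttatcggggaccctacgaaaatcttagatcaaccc
Cdk14: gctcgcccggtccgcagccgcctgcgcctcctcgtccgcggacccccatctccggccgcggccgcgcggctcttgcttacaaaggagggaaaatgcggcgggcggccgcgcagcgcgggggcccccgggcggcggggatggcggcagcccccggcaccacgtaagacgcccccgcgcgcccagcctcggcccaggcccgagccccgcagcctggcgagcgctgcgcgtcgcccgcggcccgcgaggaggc

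Such a short motif is common. It was found in 40.6% of the 10040 tested genes that had a promoter entry, in 34 of the 75 matched genes that rose with 50 ng at 6 dpp (45.3%), and in 10 of the 27 matched genes of the 31 (37%). The palindrome GTCTAGAC, which holds GTCT and AGAC but neither CAGAC nor GTCTG, was in 0.239% of tested genes and in 0 of the 75.

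Structural genes of the tubule wall had mostly small positive changes. Of 46 extracellular matrix genes, 40 had a positive change and 7 were higher at an unadjusted p under 0.05 (0 lower), against 48.9% and 2.74% of all genes, with a median of 0.11. Itga6, a laminin-binding integrin, was at 514 and 465 and then at 590 and 598 (0.27 ± 0.07), and the treated arrays were both higher. The metalloproteinase Mmp23 (84.5 and 59.0, then 97.8 and 107) and the laminin subunit Lama4 (10.8 and 21.0, then 19.5 and 51.7) had 0.42 ± 0.16 and 0.64 ± 0.26, of which Lama4 overlapped. Of these 46 genes, 34 had a level lower at 15 than at 6 dpp by over 1, and 6 of the 34 (17.6%) were higher at that p, beside 11.1% of all genes with such a level. The median was 0.16 without the first treated array and 0.07 without the second.

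Peritubular myoid, fibroblast and Leydig cell markers also had mostly positive changes. Endothelial markers had a positive change for 4 of 8, and macrophage and leucocyte markers for 6 of 12. Of 13 peritubular myoid and smooth muscle markers, 12 had a positive change and 5 were higher at an unadjusted p under 0.05 (median 0.15), against 48.9% and 2.74% of all genes. All 13 had a lower level at 15 than at 6 dpp, and 4.3% of all genes with a lower level were higher at that p. Their summed signal was 6310 and 6373 without activin and 6743 and 6792 with it. Lmod1, an actin nucleator of smooth muscle, had 2.995 and 7.55 and then 17.0 and 25.1 (0.81 ± 0.21), Ptch1, the hedgehog receptor, 472 and 432 and then 541 and 505 (0.21 ± 0.08), and Mylk, the myosin light chain kinase, 0.29 ± 0.12. The defining gene Acta2 had 1699 and 1592 and then 1760 and 1722, while Myh11, smooth muscle myosin, had 117 and 103 and then 102 and 102. Of 15 fibroblast and interstitial markers 12 had a positive change (median 0.10), and the sums were 3165 and 3194 against 3416 and 3454. Those with the smallest p were Dpt (0.41 ± 0.16), Cd34 (0.30 ± 0.16), Pdgfra (0.17 ± 0.12) and Col3a1 (0.14 ± 0.10). Changes in this list ran from -0.25 to 0.41. A level lower at 15 than at 6 dpp by over 1 was found for 12 of its markers. Of these, 1 (8.33%) was higher at an unadjusted p under 0.05, beside 11.1% of all such genes. Leydig cell markers summed to 1925 and 1959 against 2163 and 2220, and 7 of 10 had a positive change. Akr1cl took most of that (827 and 777, then 1012 and 1005), while the defining enzyme Cyp17a1 was at 1.46 and 3.03 and then at 5.55 and 2.92. The part of these cell types in the higher matrix and SMAD target genes was not tested.

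Sertoli cell genes were near their untreated level, with more positive than negative changes. Of 21 identity genes 16 had a positive change, against 48.9% of all genes, with a median of 0.04 (-0.03 without the second treated array). At an unadjusted p under 0.05, 1 gene, Cst9, was higher, against 2.74% of all genes. Nr0b1, an orphan nuclear receptor, was at 190.0 and 222 and then at 284 and 253 (0.33 ± 0.18), Vnn1, a pantetheinase, had 0.26 ± 0.15 and the steroidogenic regulator Nr5a1 0.20 ± 0.15. Of 22 maturation genes 16 had a positive change (median 0.07), against the same 48.9%. Beside Serpina5 and Cst9, keratin 18, Krt18, had -0.30 ± 0.15 and the fatty acid binding protein Fabp3 0.24 ± 0.19. The summed signals of identity genes were 20490 and 21550 without activin and 19550 and 21130 with it, so the groups overlapped.

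Among 12 steroid genes, 9 had a positive change and 3 were higher at an unadjusted p under 0.05, against 48.9% and 2.74% of all genes: Hsd17b1, Hsd17b3 and the oestrogen receptor Esr1, which was at 22.4 and 19.5 and then at 35.8 and 30.7 (0.42 ± 0.16). All 3 had low signals, and Cyp17a1 had 0.15 ± 0.21. Of 22 growth factors and ligands for germ cells, 12 had a positive change, and the list's median was 0.01 (-0.01 to 0.05 without single arrays). Igf1, insulin-like growth factor 1, was at 106 and 122 and then at 153 and 165 (0.41 ± 0.10, unadjusted p = 0.00213), with all 4 probe sets positive, and Pdgfa, a platelet-derived growth factor, at 120 and 141 and then at 178 and 162 (0.32 ± 0.10). Both groups of arrays were apart for each. Wnt4 had -0.17 ± 0.14.

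Of 32 junction genes 19 had a positive change and 4 were higher at an unadjusted p under 0.05, against 48.9% and 2.74% of all genes, with a median of 0.05. The median log2 change of the list tight, gap and adherens junctions at 15 dpp was -0.00121 without the first untreated array. After Itga6, the genes at that p were the adhesion receptor Cxadr (245 and 346, then 372 and 383, 0.35 ± 0.14), the claudin Cldn4 (114 and 93.9, then 153 and 133, 0.38 ± 0.17) and the catenin Ctnnd1 (356 and 363, then 408 and 429, 0.20 ± 0.09). None of the 3 had overlapping groups, as for 15.6% of all genes on the higher side. Of 19 retinoid genes 14 had a positive change (median 0.08), with Stra6 higher and Rarres1 lower at an unadjusted p under 0.05, beside Tgm2, a transglutaminase (0.18 ± 0.10), and the retinol dehydrogenase Rdh11 (0.18 ± 0.10).

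Cell division genes had no common direction: 17 of 48 had a positive change, against 48.9% of all genes, with a median of -0.02. The checkpoint kinase Bub1b was the 1 member at an unadjusted p under 0.05, at 303 and 219 and then at 217 and 191 (-0.32 ± 0.14), beside -0.29 ± 0.17 for Aurkb, 0.21 ± 0.14 for Ccna2 and -0.16 ± 0.11 for Cdk1. The list's median was 0.05 without the first untreated array and -0.10 without the second, and it was 0.05 without the second treated array and -0.10 without the first, so single arrays turned its sign. Germ cell markers had a median of 0.01 (-0.06 to 0.13 without single arrays) with 16 of 28 positive, and the spermatogonial gene Zbtb16 had 156 and 121 and then 179 and 186 (0.34 ± 0.13), beside Ret (0.35 ± 0.17), Pou5f1 (0.34 ± 0.20) and Uchl1 (0.12 ± 0.07). The 20 cholesterol synthesis genes had a median of 0.01 (-0.02 to 0.04 without single arrays) with 12 positive. At 6 dpp the list had a median of -0.24 with 4 of 20 positive for 5 ng. For 50 ng at that age it had -0.26 with 1 of 20 positive.

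**Figure D5:**
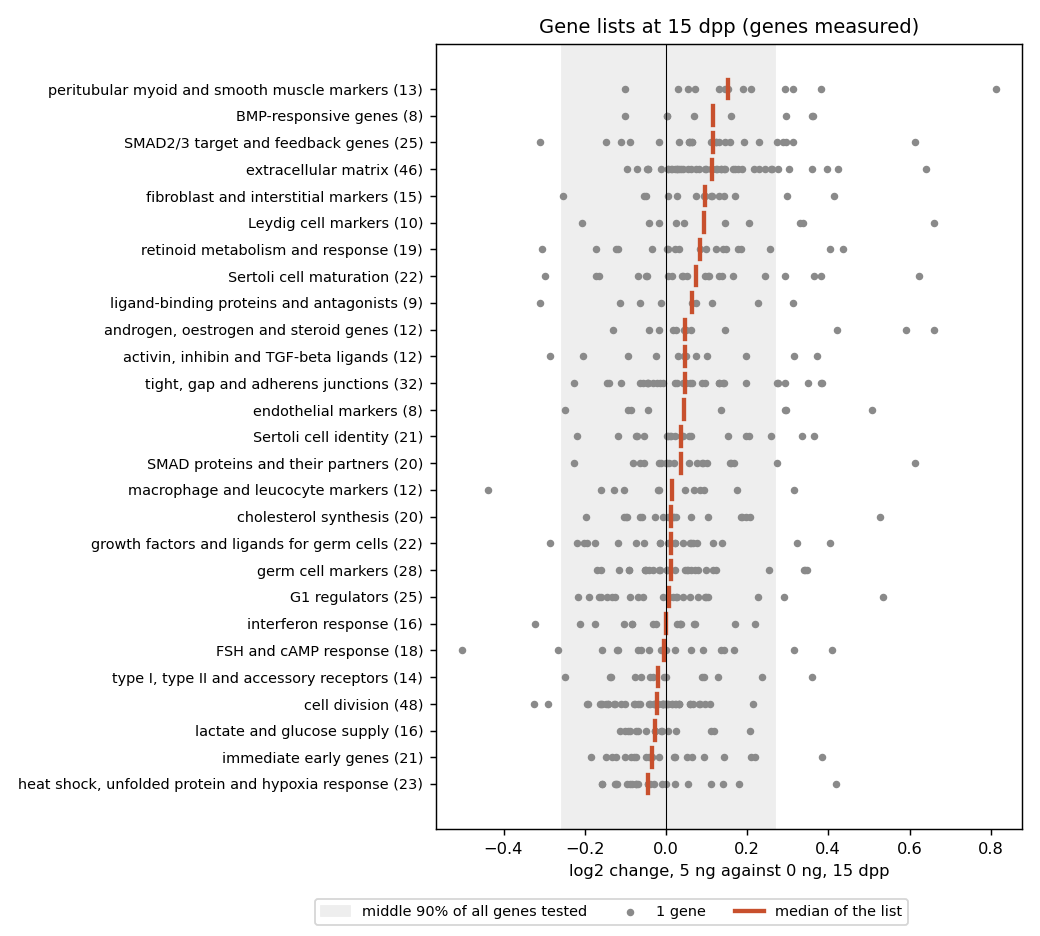
Log2 change for 5 ng against 0 ng at 15 dpp of every measured gene (grey points) in 27 lists, with the number measured in brackets, the median of each list (orange bar) and the middle 90% of all genes tested (shaded). The highest medians are those of the peritubular myoid (0.15), BMP-responsive (0.12), SMAD2/3 target (0.12) and extracellular matrix (0.11) lists, of which the BMP-responsive and SMAD2/3 medians were below 0 without 1 of the arrays, and most points lie inside the shaded band.

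The response to 5 ng was then compared between the ages directly, as the difference of the changes at 15 and 6 dpp. Without a replicate block no gene passed limma's test (0%, smallest adjusted p 0.502), and 834 genes (6.72%) had an unadjusted p under 0.05. With a block within each age 10 genes passed. The 8 genes with the smallest p mostly had opposite signs at the 2 ages. Choosing genes by the p of this difference favours opposite signs, so the pattern says nothing about the response in general. Dbi, an acyl-CoA binding protein, was at 3554 and 3564 without activin and 3703 and 3697 with it at 15 dpp (0.18 ± 0.05), whereas at 6 dpp the change was -0.23, a difference of 0.41 ± 0.07. Srsf1, a splicing factor, had 0.14 at 15 dpp and -0.29 at 6 dpp. Positive at 6 dpp and negative at 15 dpp were the poly-ADP-ribose polymerase Tnks2 (difference -0.60 ± 0.11), the dynein subunit Dync1li1 (-1.06 ± 0.21), the transporter Slc22a17 (-0.80 ± 0.16), the kinase subunit Pik3cd (-1.12 ± 0.23) and the deubiquitinase Otub1 (-1.41 ± 0.29). Probe sets of the same gene disagreed in sign at 15 dpp for some of these. A positive change was found for 2 of 3 probe sets of Tnks2, 1 of 2 of Pik3cd, 2 of 4 of Dbi and 5 of 6 of Srsf1. E2f5 was positive at both ages, with 2.49 at 6 dpp and 0.53 at 15 dpp (-1.96 ± 0.40), both from the 1 probe set of 3 named above. For Serpina5 the difference was 0.16 ± 0.21 and for Inha -0.17 ± 0.15, with 95% intervals of -0.31 to 0.62 and -0.51 to 0.16.

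With 2 arrays per group, single arrays decided some calls. Without the second treated array of 15 dpp, 1 gene passed at 15 dpp, Fen1, a flap endonuclease of DNA replication (-1.22 ± 0.14, limma adjusted p = 0.034), and 2 passed for the difference between the ages, Fen1 and the mitochondrial carrier Mtch1. On all arrays Fen1 was at 333 and 371 without activin and at 140 and 289 with it (-0.75).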

How the data were processed

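Per the labels, total RNA was isolated with Trizol, amplified from the 3' end and labelled with biotin. The table the authors deposited holds a linear intensity for each of 45101 probe sets on each array, scaled to a trimmed mean (2% off each end) of 125.001 on every array, as the values show. How the arrays were summarised and scaled is not given in the sources used here. After 64 control probe sets were left out, log2(signal + 16) was taken and quantile normalised, probe sets with a mean under the 40th percentile (log2 5.10, signal 18.4) were dropped, and each gene kept its probe set with the highest mean, which gave 12405 genes. A change on this scale understates that of genes with low signals. Symbols came from the platform annotation of 2016, updated through RefSeq GRCm38.p6; probe sets that match no symbol or more than 1 went unnamed, and some genes of the lists are not analysed here.

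A model of all 5 groups was fitted with limma 3.58.1 in R 4.3.3 (eBayes with trend, 5 residual degrees of freedom), two-sided, with Benjamini-Hochberg adjustment over all genes. Errors are standard errors of the log2 change. Arrays carry no count depth; their number limits the precision. The fit was tested on simulated data. Members, gene lists and tests were chosen with earlier results of these data known, and the grouping of genes by level at the 2 ages (from log2(signal + 16), all 10 arrays), and the separate processing of each age, after the data were seen. Named were the 20 genes with the smallest p (fewer than 10 passed), 17 pathway genes throughout, up to 4 genes with the smallest p per list described, 8 for the difference between ages, and the 8 largest rises and falls with 50 ng at 6 dpp.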

Additional observations from a re-analysis of the deposited data

How the results depend on the processing

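The count of 0 genes at 15 dpp held with other normalisations, filters, probe set rules and no intensity trend, and with a replicate block over all arrays. It was 1 with a pseudocount of 1 (Foxc2, adjusted p = 0.0442), and from 0 to 1 without single arrays. The labels give replicate numbers but not their meaning, and with 2 pairs per comparison the samples were not treated as paired; deviations of same-numbered arrays correlated at 0.203 at 15 dpp, at 0.164, 0.189 and 0.19 at 6 dpp and at -0.014 between the untreated arrays of the 2 ages. A replicate block within each age gave 20 genes at 15 dpp (15 higher; 14 of the 20 named genes with the smallest p, together with Gja1, Serpina5, Ddr1, Tox2, Fam3c and Spock2) and 10 for the difference between the ages, which otherwise ran from 0 to 2 without single arrays. The median change of genes that rose with 50 ng at 6 dpp was 0.172 and 0.106 with pseudocounts of 1 and 64, 0.118 with the mean of probe sets, 0.132 for genes with a mean signal of at least 100, and 0.138 to 0.163 without single arrays; the cause was not tested. Of these genes, 20 with such a signal were higher at an unadjusted p under 0.05, a smaller set by construction, and 21 to 32 without single arrays; the median log2 change at 15 dpp of genes that fell with 50 ng at 6 dpp ran from -0.0568 to -0.0258. Leaving out 1 array of 15 dpp turned the sign of the median of 10 of the 18 lists described. Signs turned for Il15ra (0.376 from the 15 dpp arrays alone) and Ctdspl2 (0.0703 there, and 0.0662, 0.0666 and 0.0667 without the first or second 0 ng or the second 5 ng array of 6 dpp, against a lowest value of -0.664 without single arrays), each of which has probe sets that disagree, for Bmpr2 (-0.066 with the mean of probe sets), and without single arrays for Gja1 (-0.0676 to 0.657), Smad2 (-0.0118 to 0.347) and Col3a1 (-0.000685 to 0.291).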

Other observations

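The 15 dpp arrays treated with 5 ng were closer to the 6 dpp arrays than the untreated ones were. With each of the 6 arrays of 6 dpp, both treated arrays had a higher correlation across genes than both untreated arrays; with the first untreated array of 6 dpp, for example, the values were 0.8359 and 0.8415 for 0 ng and 0.8431 and 0.8490 for 5 ng. No test was made, since the 6 values share the same 4 arrays.

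Of the lists not described gene by gene, heat shock, unfolded protein and hypoxia genes had a positive change for 6 of 23, lactate and glucose supply genes for 5 of 16, immediate early genes for 9 of 21, interferon response genes for 8 of 16, FSH and cAMP response genes for 9 of 18 and G1 regulators for 14 of 25. Over all genes the share was 48.9%. The heat shock list had a median of -0.05, which ran from -0.14 to 0.09 without single arrays of 15 dpp. The median of the lactate and glucose list was -0.03, but -0.29 without the first and 0.28 without the second untreated array of 15 dpp. The summed signal of that list was 14280 and 19760 without activin and 13860 and 18260 with it, so replicates differed more than doses. Endothelial markers summed to 565 and 577 against 569 and 575, and macrophage and leucocyte markers to 615 and 830 against 599 and 835.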
